A study of Mus musculus with 6 samples.

Results

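The genes described here are the Wnt ligands, the Frizzled and LRP receptors, β-catenin with its destruction complex, the TCF/LEF transcription factors, 4 feedback inhibitors and the 2 proteins that acylate and export Wnt ligands. They were chosen by gene name, by a rule that uses no measured value but with earlier results of these data known, and make up 45 of 27179 identifiers counted. RNA-seq counts were examined in A20 cells, a mouse B cell lymphoma line from the BALB/C strain, in 3 groups of 2 replicates. Wild-type A20 cells carried no transgene. Control sgRNA cells carried TETact-v3 with a non-targeting sgRNA and Cd4 sgRNA cells carried TETact-v3 with an sgRNA directed to the Cd4 promoter. TETact-v3 consists of a dCas9 with an array of GCN4 epitopes that recruits several copies of the TET1 catalytic domain, an enzyme domain that oxidises methylated cytosine, and of p65-hsf1 activator domains that bind MS2 aptamers in the sgRNA. Both transduced groups therefore shared the lentiviral components, the sort for cells carrying all fluorescent markers and collection on day 7 after sgRNA transduction, and these cannot be told apart from one another in a comparison with wild-type cells. The sorted cells were populations and not single clones.

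Library totals ranged from 23194920 to 121623410 counts, with the control sgRNA libraries the deepest at 92285875 and 121623410. The level of 3 counts, taken as the floor, lay between 0.027 and 0.14 CPM (counts scaled to a common library total) depending on the library. Cd4 had 30959 and 40422 counts in the Cd4 sgRNA libraries and between 17 and 127 elsewhere, as the labels state. All 8 B cell markers examined were counted in every library, with a summed level of 1843 and 1855 CPM in wild-type cells and 1127 to 1405 CPM in transduced cells. In each transduced group 3 of the 8 passed the test as lower, where 13.5% (control sgRNA) and 10.7% (Cd4 sgRNA) of all tested genes did. Markers of other lineages were low, at a summed 3.10 to 9.15 CPM for T cell, 1.49 to 6.40 CPM for myeloid and 0.043 to 0.531 CPM for fibroblast genes. Of these lists, 7 of 11 T cell, 2 of 6 myeloid and 3 of 6 fibroblast markers never exceeded 3 counts. The part of these shifts in the Wnt gene values was not tested, and in bulk RNA fewer cells of a type cannot be told apart from less RNA per cell. The control sgRNA replicates differed more from each other than the replicates of the other groups, as a chi-square statistic divided by its degrees of freedom was 372.5 for them, 18.6 for wild-type and 12.2 for Cd4 sgRNA cells, so several values are also given without one of them. That statistic was taken on raw counts and also grows with depth, and these libraries were the deepest, so its size does not measure replicate spread alone.

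Wnt ligands are secreted glycoproteins that carry a lipid attached by Porcn and travel to the cell surface with Wls. At the receiving cell they bind a Frizzled receptor together with Lrp5 or Lrp6, which stops a complex of Axin, Apc and Gsk3b from marking β-catenin for destruction. Accumulated β-catenin enters the nucleus and pairs with TCF/LEF factors at target genes, several of which encode inhibitors of the same pathway. In the lymphoid lineage the pathway is best known in progenitor cells, where Tcf7 and Lef1 support T cell and early B cell development.

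Promoter sequences are shown for the 3 members with the largest fitted rise that stand in the RefSeq promoter table of GRCm38.p6, Wnt10b, Fzd7 and Wnt6, and for Wnt1, which lies 11.7 kb from Wnt10b and stayed at 2 counts or fewer. Each runs from 250 bases before to 50 bases after an annotated start, 5′ to 3′ on the gene's strand, and CpG dinucleotides, the sites at which mammalian DNA is methylated, are in capitals. The intervals were chr15:98778101-98778400 on the minus strand for Wnt10b, chr15:98789607-98789906 on the plus strand for Wnt1, chr1:74771642-74771941 on the plus strand for Wnt6 and chr1:59481897-59482196 on the plus strand for Fzd7.
Wnt10b: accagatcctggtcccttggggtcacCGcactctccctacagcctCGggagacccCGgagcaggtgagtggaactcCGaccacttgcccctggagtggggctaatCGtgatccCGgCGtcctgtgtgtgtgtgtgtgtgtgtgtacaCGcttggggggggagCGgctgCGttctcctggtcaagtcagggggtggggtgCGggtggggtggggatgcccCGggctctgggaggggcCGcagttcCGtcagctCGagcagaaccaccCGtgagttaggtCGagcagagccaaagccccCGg
Wnt1: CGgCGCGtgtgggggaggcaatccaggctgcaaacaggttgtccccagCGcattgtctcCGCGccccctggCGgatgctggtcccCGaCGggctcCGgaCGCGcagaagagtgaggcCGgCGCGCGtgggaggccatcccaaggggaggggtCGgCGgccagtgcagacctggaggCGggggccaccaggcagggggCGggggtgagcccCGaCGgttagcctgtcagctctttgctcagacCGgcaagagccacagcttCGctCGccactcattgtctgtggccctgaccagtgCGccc
Wnt6: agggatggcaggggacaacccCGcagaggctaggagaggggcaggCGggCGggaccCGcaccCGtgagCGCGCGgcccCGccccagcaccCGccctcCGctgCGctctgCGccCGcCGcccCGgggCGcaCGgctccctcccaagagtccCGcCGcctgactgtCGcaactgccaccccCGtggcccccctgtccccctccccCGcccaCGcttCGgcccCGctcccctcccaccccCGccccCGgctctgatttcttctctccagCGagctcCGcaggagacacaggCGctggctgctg
Fzd7: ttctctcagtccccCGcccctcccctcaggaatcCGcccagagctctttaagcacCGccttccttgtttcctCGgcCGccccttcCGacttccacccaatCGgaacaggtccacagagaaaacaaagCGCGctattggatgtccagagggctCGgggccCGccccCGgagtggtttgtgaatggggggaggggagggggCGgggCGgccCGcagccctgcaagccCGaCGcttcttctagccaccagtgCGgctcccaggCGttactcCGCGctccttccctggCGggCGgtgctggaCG
These windows held 18 CpG in Wnt10b, 26 in Wnt1, 31 in Wnt6 and 24 in Fzd7. Over all 32851 promoters in the table the median was 7, over the first promoter of 9692 tested genes it was 21, and over the 41 promoters of the 31 members with an entry it was 26. Silent and called members had alike medians. The median was 31 over the first promoters of 9 members at 0 in every library, with a range of 6 to 58, and also 31 over 5 members that passed the test in any comparison, with a range of 18 to 46. The letters CTTTGAT or CTTTGAA, a core motif of TCF/LEF factors, were found on either strand in 2 of the 41 member promoters, those of Wnt11 and Wnt5b, and in 8.65% of all promoters. DNA methylation was not analysed here.

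A20 cells expressed a narrow set of these genes. Of the 45 members, 14 had 0 counts in all 6 libraries, 9 others never exceeded 3 counts in any library, and 5 (Wnt2b, Wnt8b, Fzd4, Lrp5 and Tcf7) reached between 5 and 33 counts but did not pass the expression filter. The remaining 17 were tested. Of these, 12 reached the filter's limit of 0.209 CPM in both wild-type libraries, and Wnt5b, Wnt6, Wnt10b, Fzd2 and Tcf7l1 did not and were kept through the transduced libraries, so a difference in those 5 is in part a consequence of the filter. In wild-type cells the highest level per transcript length was that of Ctnnb1, at 155.6 ± 0.330 CPM per kb (SD, n = 2), followed by Wnt10a at 35.6 ± 1.17 and Axin1 at 29.3 ± 0.0824 CPM per kb. In the control sgRNA cells Wnt10a was first with 304.1 ± 121.4 CPM per kb and Ctnnb1 next with 106.0 ± 14.9, and in the Cd4 sgRNA cells Wnt10a had 208.5 ± 6.56 and Ctnnb1 111.2 ± 2.41 CPM per kb. Rnf43 and Gsk3b, at 14.8 ± 0.897 and 14.4 ± 1.09 CPM per kb in Cd4 sgRNA cells, did not differ beyond their spread.

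**Figure D1:**
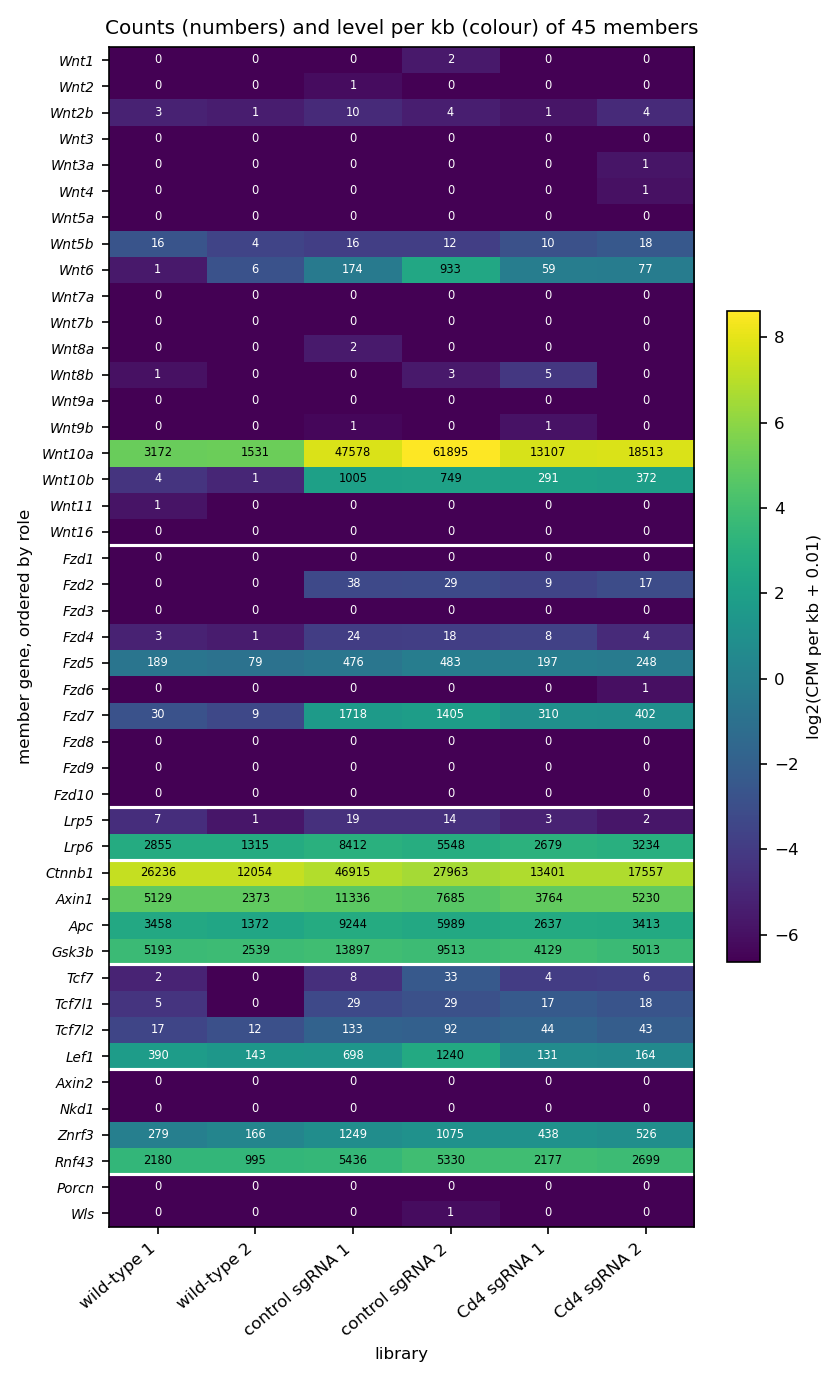
Counts of all 45 members (rows, ordered by role with white lines between roles) in the 6 libraries (columns); the number is the raw count and the colour is log2(CPM per kb + 0.01). Most ligands and Frizzled receptors are at or near 0 in all libraries, whereas Wnt10a is bright throughout and Wnt6, Wnt10b and Fzd7 brighten in the 4 transduced libraries.

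Both comparisons with wild-type cells set the transduced, sorted cells with TETact-v3 against untransduced ones. In control sgRNA against wild-type cells, 7 of the 17 tested members passed edgeR's quasi-likelihood test at an adjusted p of 0.05 as higher (Wnt6, Wnt10a, Wnt10b, Fzd2, Fzd7, Tcf7l2 and Znrf3), 1 as lower (Ctnnb1) and 9 did not pass. Over all 12418 tested genes 28% passed, 14.5% as higher and 13.5% as lower. The median log2 fold change was 0.48 over the 17 tested members and -0.0012 over all tested genes. In Cd4 sgRNA against wild-type cells, 6 members passed as higher (Wnt10a, Wnt10b, Fzd2, Fzd7, Tcf7l2 and Znrf3) and 1 as lower (Ctnnb1), where 20.5% of all genes passed, 9.85% as higher and 10.7% as lower. The median was 0.56 over the members and 0.0045 over all genes. Both comparisons include Wnt5b, Wnt6, Wnt10b, Fzd2 and Tcf7l1, which were kept through the transduced libraries. The member counts and medians are therefore in part a consequence of the filter. Values of the 2 groups did not overlap for 11 members that were higher and 3 that were lower in the control sgRNA comparison, where 67.1% of all genes did not overlap and 33.3% did so as higher, and for 13 and 2 members in the Cd4 sgRNA comparison, where the shares were 79.8% and 40.4%. Both comparisons share the same wild-type libraries. Of the 8 and 7 members that passed, only Wnt10b and Fzd7 passed in both comparisons under all 17 alternative settings. With any 1 wild-type or Cd4 sgRNA library left out, fewer members and fewer genes in all passed in each comparison. With either control sgRNA library left out, more members and more genes in all passed. The group that lost a library then rests on a lone sample, and the ranges are given in the section on processing.

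**Figure D2:**
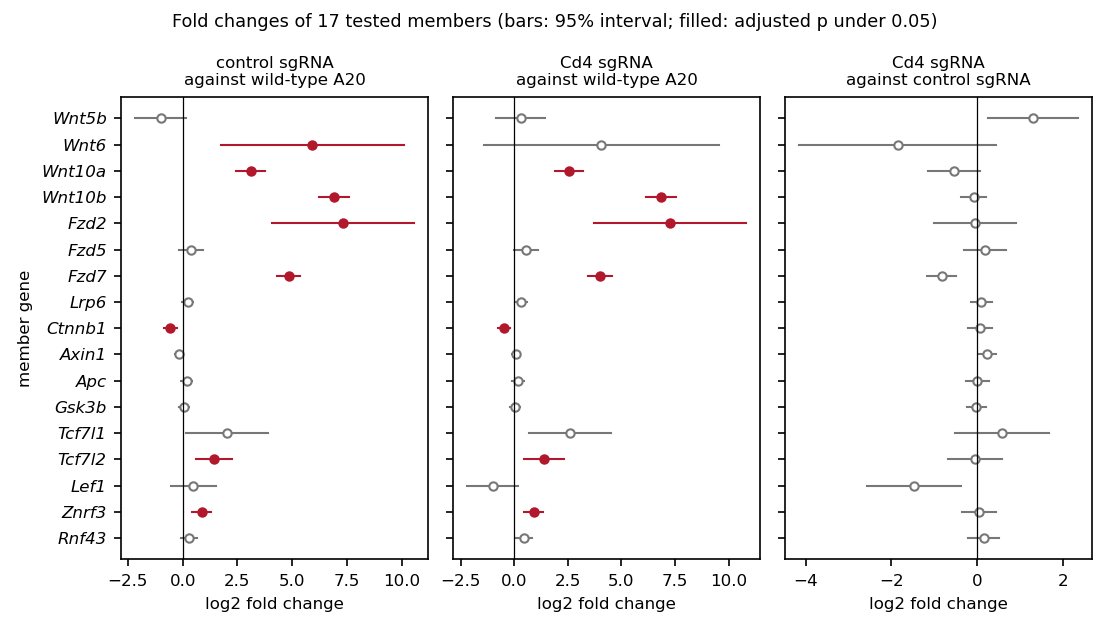
Fitted log2 fold changes (x axis) of the 17 tested members (y axis) in the 3 comparisons, with 95% intervals as bars; filled red points passed an adjusted p of 0.05 and open grey points did not. Fzd2, Wnt10b, Wnt6 and Fzd7 have the largest positive values against wild-type cells, and no point is filled in the comparison of the transduced groups. The fitted Fzd2 values against wild-type cells rest on 0 wild-type counts.

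Among the ligands the transcripts of A20 cells came almost wholly from Wnt10a, a ligand best known from tooth, hair and skin development. Wnt10a (chr1:74792019-74804176) had 68.3 and 71.5 CPM in wild-type cells, 428 and 765 CPM in control sgRNA cells and 400.0 and 418 CPM in Cd4 sgRNA cells. All 4 transduced libraries lay above both wild-type libraries, and control sgRNA replicate 2 was the highest. The log2 fold change against wild-type cells was 3.09 ± 0.27 (SE, n = 2 per group, adjusted p = 0.0019, edgeR's quasi-likelihood test) in control sgRNA cells and 2.55 ± 0.27 (adjusted p = 0.0041) in Cd4 sgRNA cells. The call in control sgRNA cells was lost without wild-type replicate 1 (adjusted p = 0.0513), and that in Cd4 sgRNA cells was lost without either wild-type replicate. Per transcript length Wnt10a ranked 2718th of the 12418 tested genes in wild-type cells, 231st in control sgRNA cells and 371st in Cd4 sgRNA cells. It held 99.19% (95% Wilson interval 98.81 to 99.44) of all Wnt ligand counts in wild-type replicate 1 and 97.28% to 97.52% in the 4 transduced libraries. Reads carry no molecular identifiers, so such intervals cover counting error only.

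Wnt10b, the closest paralogue of Wnt10a and a ligand known for holding back fat cell formation, rose alike in all 4 transduced libraries. It had 4 and 1 counts in wild-type cells, 1005 and 749 in control sgRNA cells and 291 and 372 in Cd4 sgRNA cells, or 0.0861 and 0.0467 CPM, 9.05 and 9.26 CPM, and 8.88 and 8.40 CPM. The 4 transduced libraries stood within a narrow band far above the wild-type libraries. Log2 fold changes were 6.92 ± 0.29 (adjusted p = 1.0e-04, edgeR's quasi-likelihood test) in control sgRNA and 6.83 ± 0.30 (adjusted p = 1.1e-04) in Cd4 sgRNA cells. Since wild-type cells gave only 5 counts in all, the ratio of pooled counts is given with its exact 95% counting interval, at 124 (53 to 382) and 117 (49.8 to 361). Wnt10b lies at chr15:98770712-98778206, with Wnt1, the ligand for which the family is named in part, 11.7 kb away. Wnt1 had 0 counts in 5 libraries and 2 in control sgRNA replicate 2.

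Wnt6, an epithelial ligand, lies 6.7 kb from Wnt10a at chr1:74754342-74785322. It had 1 and 6 counts in wild-type cells, 174 and 933 in control sgRNA cells and 59 and 77 in Cd4 sgRNA cells. In CPM these were 0.0215 and 0.280, 1.57 and 11.5, and 1.80 and 1.74. All transduced libraries were above both wild-type libraries, but control sgRNA replicate 2 was 7.36 times replicate 1. The log2 fold change was 5.91 ± 1.75 (adjusted p = 0.047, edgeR's quasi-likelihood test) in control sgRNA cells and 4.06 ± 2.30 (adjusted p = 0.24) in Cd4 sgRNA cells, so only the former passed. The ratios of pooled counts were 55.9 (27 to 139) and 17.1 (8.09 to 43.4), intervals that cover counting error and not the spread between replicates. The call in control sgRNA cells was lost in 7 of 17 alternatives, among them voomLmFit and the omission of any 1 of the wild-type or Cd4 sgRNA libraries. Its value in that comparison was 6.79 without control sgRNA replicate 1 and 3.89 without replicate 2, and ranged from 3.89 to 8.11 over the 6 libraries left out in turn. In the Cd4 sgRNA comparison its value was 4.09 without control sgRNA replicate 1 and 4.07 without replicate 2, against 4.06 in the full fit. Wnt6 did pass in that comparison with only the 2 compared groups in the fit, where 3769 of 12069 genes passed as higher.

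The other 16 ligands contributed few reads. Wnt5b, a ligand of β-catenin-independent signalling, had 16 and 4 counts in wild-type, 16 and 12 in control sgRNA and 10 and 18 in Cd4 sgRNA cells, and passed in no comparison. Wnt2b peaked at 10 counts and Wnt8b at 5. Wnt1, Wnt2, Wnt3a, Wnt4, Wnt8a, Wnt9b and Wnt11 never exceeded 3 counts in any library, and Wnt3, Wnt5a, Wnt7a, Wnt7b, Wnt9a and Wnt16 had none. A count of 0 allows a level of up to 0.027 CPM in the deepest library and 0.14 CPM in the shallowest. The neighbouring pairs Wnt3 and Wnt9b, whose annotated spans overlap, and Wnt3a and Wnt9a, 16.1 kb apart, stayed at no more than 1 count per gene and library, unlike the pairs of Wnt6 with Wnt10a and of Wnt10b with Wnt1.

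**Figure D3:**
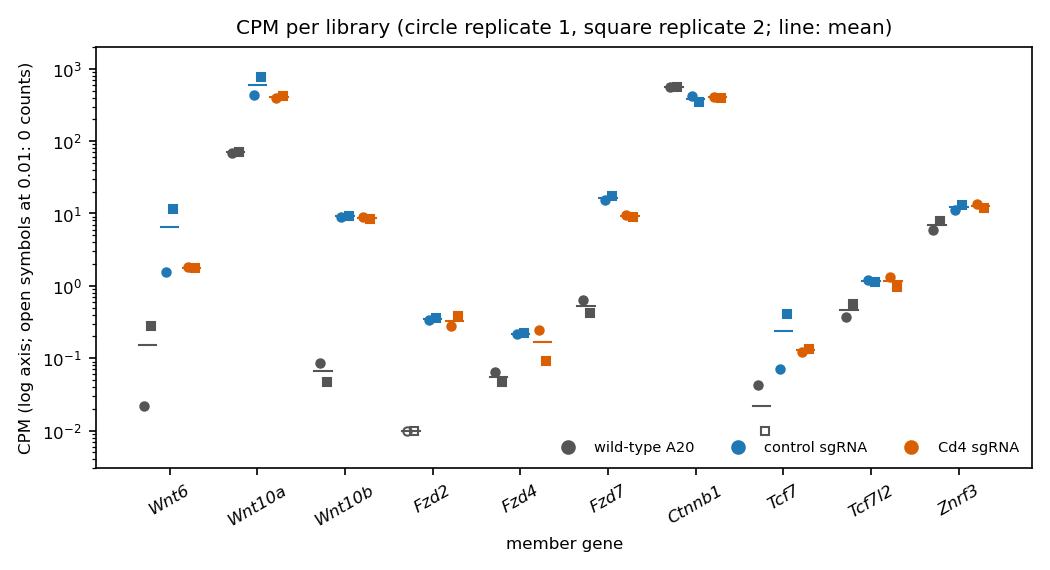
CPM on a log axis in each of the 6 libraries for the 10 members described library by library (x axis); circles are replicate 1, squares replicate 2, lines group means of 2, and open symbols drawn at 0.01 stand for 0 counts. Wnt10b and Fzd7 show transduced replicates far above wild-type cells, Fzd2 is counted in transduced cells alone, and the 2 control sgRNA replicates of Wnt6 (1.57 and 11.5 CPM) lie apart.

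Of the 10 Frizzled receptors, which bind the ligands through a cysteine-rich outer domain, Fzd7 and Fzd2 rose. Fzd7 (chr1:59482147-59486955) had 30 and 9 counts in wild-type cells, 1718 and 1405 in control sgRNA and 310 and 402 in Cd4 sgRNA cells, or 0.646 and 0.420 CPM, 15.5 and 17.4 CPM, and 9.46 and 9.08 CPM. The 3 groups did not overlap, with control sgRNA the highest. The log2 fold change was 4.84 ± 0.22 (adjusted p = 3.1e-04, edgeR's quasi-likelihood test) in control sgRNA and 4.02 ± 0.23 (adjusted p = 6.9e-04) in Cd4 sgRNA cells. Fzd2 (chr11:102604431-102608058) was at 0 in both wild-type libraries and had 38 and 29 counts in control sgRNA and 9 and 17 in Cd4 sgRNA cells. Against a floor of 3 counts per library it was at least 3.42-fold higher in control sgRNA and at least 3.22-fold higher in Cd4 sgRNA cells. The fitted log2 fold changes, which rest on 0 wild-type counts, were 7.30 and 7.25 (adjusted p = 0.015 and 0.025, edgeR's quasi-likelihood test). Both calls were lost when any wild-type or Cd4 sgRNA library was left out. Fzd5 was the Frizzled gene with the highest level per length in wild-type cells, at 4.07 and 3.69 CPM, and had 4.28 and 5.97 CPM in control sgRNA and 6.01 and 5.602 CPM in Cd4 sgRNA cells without passing (adjusted p = 0.24 and 0.13).

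Fzd4, a receptor that also binds the non-Wnt ligand norrin, stayed below the filter, with 3 and 1 counts in wild-type, 24 and 18 in control sgRNA and 8 and 4 in Cd4 sgRNA cells. Its pooled ratio to wild-type cells was 3.71 (exact 95% counting interval 1.35 to 14.3) in control sgRNA and 2.64 (0.801 to 11.2) in Cd4 sgRNA cells. Its span (chr7:89404366-89410110) overlaps that of Tmem135, and whether reads were assigned by strand is not stated. Fzd6 had 1 count in all, and Fzd1, Fzd3, Fzd8, Fzd9 and Fzd10 had none. Of the co-receptors, Lrp6 had 61.5 and 61.4 CPM in wild-type, 75.7 and 68.6 in control sgRNA and 81.8 and 73.1 in Cd4 sgRNA cells. Its 4 transduced values lay above both wild-type values, and its log2 differences of 0.23 ± 0.10 and 0.33 ± 0.10 did not pass (adjusted p = 0.13 and 0.061, edgeR's quasi-likelihood test). Lrp5 had between 1 and 19 counts.

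β-Catenin, encoded by Ctnnb1 (chr9:120933400-120960507), was the member that fell. It had 564.7 and 563 CPM in wild-type cells, 422 and 346 CPM in control sgRNA cells and 409 and 397 CPM in Cd4 sgRNA cells, so that all transduced libraries lay below both wild-type libraries. The log2 change was -0.55 ± 0.11 (adjusted p = 0.017, edgeR's quasi-likelihood test) in control sgRNA and -0.49 ± 0.11 (adjusted p = 0.032) in Cd4 sgRNA cells. Both calls were lost when any wild-type or Cd4 sgRNA library was left out. None of the 3 members grouped here as the destruction complex of β-catenin passed in either comparison. Axin1, the scaffold, had at most 118 CPM over the 6 libraries and a mean of 98.5 to 116.5 CPM over the groups, Gsk3b, the kinase, 112 to 126 CPM, and Apc 64.1 to 83.2 CPM. Their log2 differences from wild-type cells lay between -0.17 and 0.18.

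Of the 4 TCF/LEF factors, 1 rose, 2 did not pass and 1 was too low to test. Tcf7l2 (chr19:55741797-55933659), the main TCF of intestinal epithelium, had 17 and 12 counts in wild-type, 133 and 92 in control sgRNA and 44 and 43 in Cd4 sgRNA cells, or 0.366 and 0.560, 1.20 and 1.14, and 1.34 and 0.971 CPM. All transduced libraries were above wild-type cells, with log2 fold changes of 1.44 ± 0.34 (adjusted p = 0.027, edgeR's quasi-likelihood test) and 1.40 ± 0.38 (adjusted p = 0.048), of which the latter was lost in 8 of 17 alternatives, the voomLmFit test among them, and the former in 6. Tcf7l1, often a repressor, had 5 and 0 counts in wild-type and 17 to 29 in transduced libraries and did not pass (adjusted p = 0.096 and 0.061). Tcf7, the TCF of T cells, had 2 and 0 counts in wild-type, 8 and 33 in control sgRNA and 4 and 6 in Cd4 sgRNA cells and was not tested. Its pooled ratio was 7.25 (exact 95% counting interval 1.88 to 61.8) in control sgRNA and 4.41 (0.939 to 41.4) in Cd4 sgRNA cells, and its span (chr11:52246527-52283383) overlaps Skp1. Lef1, the factor with the highest level per length of the 4 in wild-type cells, had 8.39 and 6.68 CPM in wild-type, 6.28 and 15.3 in control sgRNA and 3.998 and 3.71 CPM in Cd4 sgRNA cells. Control sgRNA replicates of Lef1 lay on either side of the wild-type values and both Cd4 sgRNA values lay below them, and neither comparison passed (adjusted p = 0.43 and 0.19).

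Feedback inhibitors are usually induced when the pathway is active. Axin2, the most widely used target of β-catenin and TCF, and Nkd1, an inhibitor of Dishevelled, had 0 counts in all 6 libraries, including both control sgRNA libraries, in which the floor of 3 counts corresponds to 0.027 and 0.0371 CPM. Znrf3 (chr11:5276329-5444847), a ubiquitin ligase that removes Frizzled from the cell surface, had 6.01 and 7.75 CPM in wild-type, 11.2 and 13.3 CPM in control sgRNA and 13.4 and 11.9 CPM in Cd4 sgRNA cells. All transduced libraries exceeded wild-type cells, with log2 fold changes of 0.86 ± 0.18 (adjusted p = 0.018, edgeR's quasi-likelihood test) and 0.90 ± 0.18 (adjusted p = 0.023). Both calls were lost when any wild-type or Cd4 sgRNA library was left out. Its relative Rnf43 had 46.9 and 46.5, 48.9 and 65.9, and 66.4 and 61.0 CPM and did not pass (adjusted p = 0.19 and 0.087). Porcn, the acyltransferase of Wnt ligands, had 0 counts in all libraries, and Wls, their carrier to the membrane, had 1 count in all, in control sgRNA replicate 2. Whether the pathway was active was not tested.

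The comparison of Cd4 sgRNA with control sgRNA cells sets apart 2 groups that both carry the system and differ in the sgRNA. None of the 17 tested members passed edgeR's quasi-likelihood test, where 0.0725% of all genes, 9 of 12418, passed. At an unadjusted p under 0.05 there were 4 members and 3091 genes in all. DESeq2 called 2 members, both lower in Cd4 sgRNA cells, where it called 538 genes higher and 889 lower of all 12418. No member was called by voomLmFit. The median log2 difference was 0.0027 over the members and -0.0078 over all genes. The interval was narrow for Wnt10b, at -0.08 (95% interval -0.38 to 0.21), and for Ctnnb1, at 0.07 (-0.21 to 0.34). It was wider for Wnt10a, at -0.54 (-1.15 to 0.07), and for Znrf3, at 0.04 (-0.36 to 0.44), and widest for Wnt6, at -1.85 (-4.15 to 0.45). The Wnt6 difference was -2.70 without control sgRNA replicate 1 and 0.17 without replicate 2, and that of Wnt10a was -0.90 and -0.07. The most distant from 0 relative to its error was Fzd7, at -0.82 (-1.16 to -0.49, adjusted p = 0.10), followed by Lef1 at -1.48 (-2.58 to -0.38, adjusted p = 0.15), and the values of the groups did not overlap for either gene. Over all members 3 did not overlap as higher and 4 as lower, where 59.7% of all genes did not overlap and 29.5% did so as higher. Fzd7 passed under DESeq2, and its difference was -0.90 without control sgRNA replicate 1 and -0.74 without replicate 2. Such fits assume that the lone control sample varies like the other groups.

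The rest of the pathway was examined with 6 lists of 103 genes, of which 56 were tested. In control sgRNA against wild-type cells 13 were higher and 5 lower, with a median log2 difference of 0.15, against the 14.5% and 13.5% of all genes given above. In Cd4 sgRNA against wild-type cells 6 were higher and 5 lower, with a median of 0.091, where 9.85% of all genes were higher and 10.7% lower. None passed between the transduced groups, where 12 of the 56 and 3091 of all 12418 genes had an unadjusted p under 0.05. Of the called pathway genes that the naming rule selects, 17 and 11 in the comparisons with wild-type cells, only Apc2 in control sgRNA cells kept its call with each library left out in turn. The calls of Lgr4 and Vangl2 in control sgRNA cells were lost without wild-type replicate 1, and the others were lost without either wild-type library. Upstream of the receptors, 2 of the 7 R-spondins and LGR receptors were tested, and Lgr4, an R-spondin receptor, rose. Lgr4 had 26 and 17 counts in wild-type, 1104 and 1595 in control sgRNA and 212 and 315 in Cd4 sgRNA cells, with log2 fold changes of 4.53 ± 0.51 (adjusted p = 0.0033, edgeR's quasi-likelihood test) and 3.41 ± 0.56 (adjusted p = 0.013). Of the 17 extracellular inhibitors 3 were tested, and Kremen1, a receptor for the inhibitor Dkk1, passed in control sgRNA cells (1.19 ± 0.26, adjusted p = 0.021) and not in Cd4 sgRNA cells (0.62 ± 0.27, adjusted p = 0.16). Of 16 genes of β-catenin-independent receptors and planar polarity 6 were tested, 4 were higher in control sgRNA and 1 in Cd4 sgRNA cells. Vangl2, a core planar polarity protein, passed in both, at 1.54 ± 0.16 (adjusted p = 0.0025) and 1.56 ± 0.16 (adjusted p = 0.0038).

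**Figure D4:**
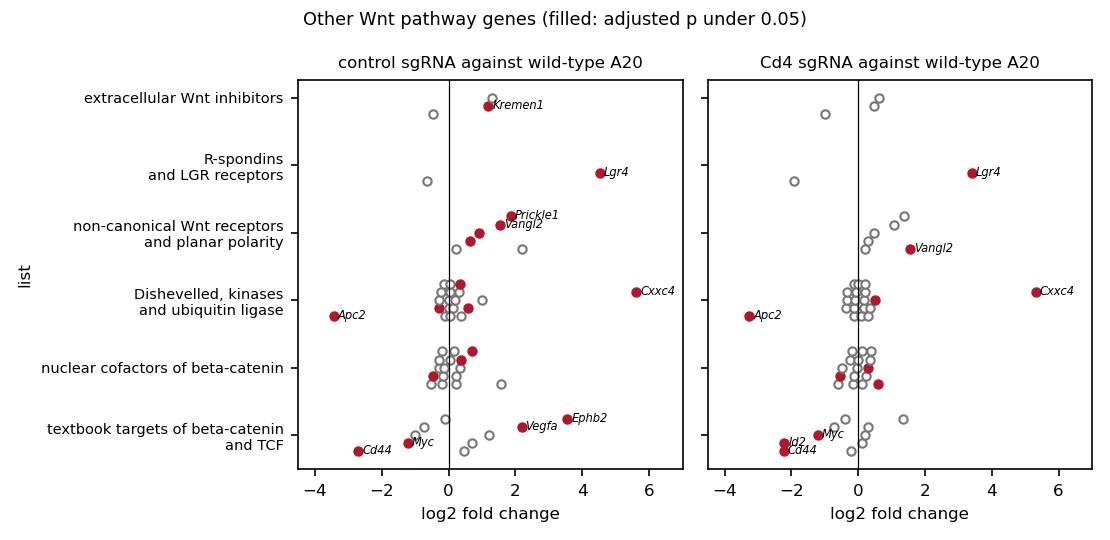
Log2 fold changes against wild-type cells (x axis) for the tested genes of 6 other pathway lists (y axis), control sgRNA on the left and Cd4 sgRNA on the right; filled red points passed an adjusted p of 0.05, and the larger ones are named. Lgr4 and Cxxc4 lie far to the right and Apc2 far to the left in both panels, and most Dishevelled, kinase and cofactor genes lie near 0.

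Inside the cell, 19 of 22 genes for Dishevelled proteins, kinases and the ubiquitin ligase of β-catenin were tested, with 3 higher and 2 lower in control sgRNA and 2 higher and 1 lower in Cd4 sgRNA cells. Apc2, a relative of Apc, fell in both. It had 106 and 55 counts in wild-type, 29 and 13 in control sgRNA and 9 and 10 in Cd4 sgRNA cells, with log2 changes of -3.44 ± 0.29 (adjusted p = 0.0017, edgeR's quasi-likelihood test) and -3.26 ± 0.35 (adjusted p = 0.0042). Cxxc4, a Dishevelled inhibitor with a CXXC zinc finger, had 0 and 1 counts in wild-type, 65 and 92 in control sgRNA and 24 and 28 in Cd4 sgRNA cells (adjusted p = 0.017 and 0.037). Among 16 tested of 19 nuclear cofactors, 2 were higher and 1 lower in each comparison, against the same shares of all genes. Bcl9 passed in control sgRNA cells (0.71, adjusted p = 0.010) and not in Cd4 sgRNA cells (-0.24, adjusted p = 0.21, edgeR's quasi-likelihood test). Chd8 passed in Cd4 sgRNA cells (0.30, adjusted p = 0.048) and not in control sgRNA cells (0.16, adjusted p = 0.18, the same test). Bcl9l, which bridges β-catenin to Pygopus, rose by 0.36 and 0.59 on the log2 scale (adjusted p = 0.027 and 0.0094), and Tle1, a Groucho corepressor, changed by -0.48 and -0.55 (adjusted p = 0.024 and 0.022, edgeR's quasi-likelihood test).

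Of 26 textbook targets of β-catenin and TCF 10 were tested. In control sgRNA cells 2 were higher and 2 lower, where 14.5% and 13.5% of all genes were, and in Cd4 sgRNA cells 0 were higher and 3 lower, where 9.85% and 10.7% were. Myc had 183 and 188 CPM in wild-type, 92.7 and 66.7 in control sgRNA and 78.9 and 82.0 CPM in Cd4 sgRNA cells, a log2 change of -1.22 ± 0.16 (adjusted p = 0.0048, edgeR's quasi-likelihood test) and -1.20 ± 0.16 (adjusted p = 0.0075). Cd44, an adhesion receptor, had 45 and 14 counts in wild-type and 7 to 14 counts in each transduced library, with changes of -2.70 ± 0.42 (adjusted p = 0.0077) and -2.23 ± 0.48 (adjusted p = 0.026). Id2 passed in Cd4 sgRNA cells (-2.21 ± 0.34, adjusted p = 0.011) and not in control sgRNA cells (-0.74 ± 0.32, adjusted p = 0.13). In the main fit Ephb2 and Vegfa passed in control sgRNA cells only. In Cd4 sgRNA cells Ephb2 also passed under DESeq2 and with only the 2 compared groups fitted, where 1735 and 3769 genes in all passed as higher. The control sgRNA calls of Ephb2 and Vegfa were lost under voomLmFit. Their control sgRNA replicates were far apart, at 11.05 and 36.8 CPM for Ephb2 and 16.2 and 42.6 CPM for Vegfa, and their Cd4 sgRNA values were 5.46 and 4.83 CPM and 7.66 and 6.42 CPM, against 1.89 and 2.24 CPM and 6.28 and 6.68 CPM in wild-type cells. Between the transduced groups none of Id2, Ephb2 and Vegfa passed edgeR's quasi-likelihood test (adjusted p = 0.12, 0.13 and 0.12), although the values of the groups did not overlap for any of them, with Cd4 sgRNA cells lower. All 3 passed there under DESeq2, which called 538 genes higher and 889 lower of all 12418. Without control sgRNA replicate 1 the log2 differences were -1.91 for Id2, -2.84 for Ephb2 and -2.60 for Vegfa. Without replicate 2 they were -0.86, -1.11 and -1.22.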

How the data were processed

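RNA-seq of polyA RNA was measured in 6 A20 libraries, 3 groups of 2, grouped by their labels. Per the study's methods, the authors used Rsubread to align the paired-end reads (mm10), and featureCounts with built-in RefSeq genes for the counting by Entrez identifier. The deposited values are raw counts, and use of strand is not stated in the sources used here. A table of the whole series repeats these counts and was not used. Nothing in the sources names separate cultures beyond independent repeats, so p-values measure the spread between these samples.

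Symbols, positions and promoters came from RefSeq GRCm38.p6, the mm10 build, for 25275 of 27179 identifiers. Genes without a unique symbol, mitochondrial and rRNA genes and genes of type other were removed, and filterByExpr left 12418 genes with 86.0% to 95.0% of the counts per library. TMM factors were used, and CPM and CPM per kb of the files' gene length were computed here. The test was edgeR 4.0.16 (glmQLFit and glmQLFTest, robust, group terms only, fitted to the 6 libraries together), two-sided, and p-values were adjusted over all tested genes by Benjamini-Hochberg at 0.05. The standard error is the log2 fold change over the square root of F. An exact permutation test of 2 against 2 cannot go below p = 0.333. Alternatives were voomLmFit of limma 3.58.1 (the study's test), DESeq2 1.42.0, other scalings, filters and sample sets, in R 4.3.3. The fit was run on simulated counts with the same spread in every group, to check that known changes were recovered with the right sign. A group with more distant replicates, like the control sgRNA cells, was not simulated.

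Members and lists were chosen with earlier results of these data known. Members past the threshold in any comparison, or failing the filter with at least 20 counts in a library, are described library by library, the others by ranges with up to 4 examples per role. Of each pathway list up to 3 genes per comparison and direction with the smallest p qualified for naming. Bcl9, Chd8, Id2, Ephb2 and Vegfa are given for both comparisons because they passed in 1 of them.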

Additional observations from a re-analysis of the deposited data

How the results depend on the processing

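With only the 2 compared groups in the fit, members called higher and lower went from 7 and 1 to 4 and 0 in control sgRNA against wild-type cells and from 6 and 1 to 12 and 2 in Cd4 sgRNA against wild-type cells. All genes went from 1803 and 1675 to 835 and 734, from 1223 and 1327 to 3769 and 3683, and in Cd4 sgRNA against control sgRNA from 3 and 6 to 1 and 0. The other pathway genes went from 13 and 5 to 6 and 3 and from 6 and 5 to 19 and 20. Under DESeq2 2 members were lower in Cd4 sgRNA cells against wild-type and 2 against control sgRNA cells, 8, 9 and 7 other pathway genes were lower in the 3 comparisons, and all genes between the transduced groups were 538 and 889. That last comparison gave 1 higher gene with voomLmFit, 5 and 13 without the low-count filter and 12 lower at equal depth. Leaving out 1 library, members ranged over 2 to 13 higher and 0 to 2 lower (control sgRNA against wild-type), 2 to 12 and 0 to 2 (Cd4 sgRNA against wild-type) and 0 to 3 and 0 to 5 (between transduced groups), all genes over 63 to 4228 and 53 to 3985, 47 to 4152 and 33 to 3670, and 1 to 3884 and 0 to 3953, and other pathway genes over 0 to 30 and 1 to 14, 0 to 22 and 0 to 19, and 0 to 10 and 0 to 25. The high ends came without a control sgRNA library, where the lone sample is assumed to vary like the other groups. The replicate block gave 7 and 1, 5 and 1, and 0 and 0 members, and the pairing check gave correlations of 0.023, 0.0805 and -0.272 between same-numbered samples, so the numbers were not taken to pair them. The older quasi-likelihood method was added after seeing the data. Of 402 alternative values of named members 343 kept their side of the threshold, 50 lost it and 9 gained it. The sign turned in 8, all between the transduced groups and none past the threshold before or after. Among 1017 values of other pathway genes it turned in 14, of which 1 was past the threshold, Myc between the transduced groups, at -0.20 without control sgRNA replicate 2, 0.28 without replicate 1 and 0.014 with both. The cause of these shifts was not tested. Depth limits members under 3 counts.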

Other observations

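Genes annotated within 100 kb of a described member were read from the same fit. Around Wnt10b, 9 genes lay in that range and 6 were tested, of which 3 were higher and 1 lower in control sgRNA and 1 was higher in Cd4 sgRNA against wild-type cells, where 28% and 20.5% of all tested genes passed in either direction. Ddn, which encodes dendrin, a protein of neurons and podocytes, lies 25.6 kb away and had 0.311 ± 0.109 CPM (SD, n = 2) in wild-type, 2.01 ± 0.0826 in control sgRNA and 3.02 ± 0.390 CPM in Cd4 sgRNA cells, with log2 fold changes of 2.57 ± 0.33 (adjusted p = 0.0044) and 3.17 ± 0.33 (adjusted p = 0.0037). Prkag1, a subunit of AMP-activated kinase 34.6 kb away, was at 35.3 ± 1.37 CPM in wild-type and 15.6 ± 3.33 CPM in control sgRNA cells and changed by -1.17 ± 0.16 (adjusted p = 0.0054). Arf3, at 7.59 kb the nearest gene to Wnt10b, had a log2 difference of 0.24 ± 0.08 that did not pass (adjusted p = 0.067).

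Around Wnt6 and Wnt10a, none of the 3 other tested neighbours, Ttll4, Prkag3 and Cdk5r2, passed in either comparison with wild-type cells. Prkag3, 4.87 kb from Wnt6, had a maximum of 24 counts. Around Znrf3 all 3 neighbours were tested. Kremen1, the nearest at 14.6 kb, was higher in control sgRNA cells, by 1.19 ± 0.26 (adjusted p = 0.021), and had 0.62 ± 0.27 (adjusted p = 0.16) in Cd4 sgRNA cells. Xbp1, a factor of plasma cell differentiation and the unfolded protein response 75.8 kb away, fell by 0.60 (adjusted p = 0.0062) and by 0.50 (adjusted p = 0.015) on the log2 scale, whereas Ccdc117 rose by 0.43 (adjusted p = 0.027) and 0.46 (adjusted p = 0.030). Of 2 tested neighbours of Fzd2, Gpatch8, 48 kb away, rose by 0.42 (adjusted p = 0.019) and 0.36 (adjusted p = 0.037). No neighbour of Fzd7 or Tcf7l2 passed the expression filter. All adjusted p-values here are from edgeR's quasi-likelihood test.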
